A study of Mus musculus with 6 samples.

Results

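Integrins and laminins are the receptors and the basement membrane ligands through which a cell holds on to its matrix, and their subunits were followed here in mouse tail-tip skin cells during reprogramming by CRISPR activation. The members are the 37 genes whose symbols name an integrin alpha subunit (18 genes), an integrin beta subunit (8 genes) or a laminin chain (5 alpha, 3 beta and 3 gamma chains), out of 49315 genes in the count table. They were picked by name and not by any measured value. RNA sequencing covered 6 libraries of wild type cells from tail tip skin, all given vectors. Fibroblasts (day 0, 2 libraries) received lentiviral vectors labelled negative, early cells (day 7, 2 libraries) received vectors for CRISPR activation by the SAM system, and late cells (day 22, 2 libraries) received the same kind of vectors and were then taken from isolated colonies described as cardiac progenitors. Day and vectors differ together between fibroblasts and the other cells, and late cells alone came from isolated colonies. The parts of these in any difference cannot be told apart. CRISPR activation switches on a gene at its own promoter with a Cas9 that does not cut. Which genes were targeted is not given in the sources used here, and early replicate 2 is labelled partially reprogrammed where replicate 1 is labelled early.

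An integrin is a pair of an alpha and a beta subunit that spans the cell membrane and ties matrix proteins outside to the actin skeleton inside. The alpha subunit largely sets the ligand, so integrins are grouped into receptors for laminin, for collagen, for the short RGD motif of fibronectin, vitronectin and nephronectin, and into leukocyte receptors. Laminins are cross-shaped trimers of an alpha, a beta and a gamma chain that form the sheet of the basement membrane. Heart muscle cells sit on a basement membrane rich in laminin, while dermal fibroblasts lie in a matrix of mostly collagen and fibronectin.

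Total counts ranged from 20172874 to 40122999 per library, and the members took 0.357% to 0.566% of them. Values are CPM, counts scaled to a common total after TMM scaling (trimmed mean of M-values, which sets libraries to a common effective size), and 3 counts correspond to 0.0843 to 0.142 CPM. The 12 fibroblast markers summed to 13126 and 14439 CPM in the libraries labelled fibroblast, with all 12 detected. The libraries of a stage correlated at r = 0.939 for early cells, 0.883 for late cells and 0.978 for fibroblasts (Pearson, over log2 CPM of genes, which are not independent replicates), and early replicate 1 was closer to late replicate 1 (0.945) than to early replicate 2. Late replicate 2 stood apart: its 12 heart muscle markers summed to 57882 CPM against 87.6 CPM in late replicate 1, its 12 endothelial markers to 930.5 against 35.3 CPM, and mitochondrial genome transcripts took 10.3% of its counts against 1.49% to 2.16% elsewhere. The words rose and fell are kept for genes with a Benjamini-Hochberg adjusted p under 0.05 among the 16688 tested by edgeR's quasi-likelihood test. Of the 37 members, 35 passed the filter on low counts, and Itgad and Itgax did not.

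The promoters of Itga8 and Lama5 are shown because these genes differed from fibroblasts in opposite directions in early cells: Itga8, which fell, was the single member that passed the test, and Lama5 had the highest positive fold change among the members. Each line gives 250 bases before the RefSeq start of transcription in GRCm38.p6, read 5′ to 3′ along the gene. The Itga8 window lies on the minus strand at chr2:12301945-12302194 and that of Lama5 on the minus strand at chr2:180225860-180226109. Capitals mark each match, on either strand, to the GC box letters GGGCGG.
Itga8: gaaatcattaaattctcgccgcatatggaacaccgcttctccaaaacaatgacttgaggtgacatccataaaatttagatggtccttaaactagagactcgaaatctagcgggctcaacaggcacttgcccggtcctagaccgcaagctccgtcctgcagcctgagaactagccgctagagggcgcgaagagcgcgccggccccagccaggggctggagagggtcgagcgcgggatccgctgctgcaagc
Lama5: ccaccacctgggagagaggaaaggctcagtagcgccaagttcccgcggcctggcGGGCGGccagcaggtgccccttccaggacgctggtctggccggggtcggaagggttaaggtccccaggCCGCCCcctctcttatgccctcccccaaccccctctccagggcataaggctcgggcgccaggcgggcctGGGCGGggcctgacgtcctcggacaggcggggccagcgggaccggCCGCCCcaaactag
The Lama5 window held 4 matches to GGGCGG and the Itga8 window 0, and 32.7% of 32851 such windows of the same length in the RefSeq table hold at least 1. Neither window held the GATA core letters GATAA on either strand, which 22.6% of the windows hold. Both were rich in the dinucleotide CG, with 18 in the Itga8 window and 19 in the Lama5 window against a median of 6.0. Windows of 23 of the 37 members were matched by symbol. A match is a run of letters and no evidence that a factor binds there.

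The alpha chains of laminin, carry most of the sites that cells bind, and Lama5 and Lama1 stood higher in late cells than in fibroblasts in both libraries. Lama5 encodes the alpha chain of basement membranes in mature epithelia and vessels (ENSMUSG00000015647, chromosome 2, 180176373 to 180225859 in GRCm38). Lama5 was at 5.44 and 12.8 CPM in fibroblasts, at 451 and 128 CPM in early cells and at 204 and 278 CPM in late cells. All 4 CRISPR activation libraries lay above both fibroblast libraries, and the early libraries differed from each other more than the late ones. The log2 fold change over fibroblasts was 4.99 ± 0.82 in early cells (SE, edgeR adjusted p = 0.0556) and 4.72 ± 0.81 in late cells (edgeR adjusted p = 0.0585), so neither passed the test. Leaving out early replicate 2 brought the early comparison to 0.0289, within a range of 5.82e-09 to 0.226 over all alternatives tried. For the late comparison the adjusted p was 0.0340 without early replicate 1 and 0.0307 without early replicate 2, within a range of 5.18e-08 to 0.26.

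Like Lama5, markers of simple epithelium summed higher in early and late cells than in fibroblasts. Between late and early cells they differed from Lama5, whose libraries overlapped. Both late libraries lay above both early ones for 9 of the 11 markers and below for 1 (16.1% and 17.6% of tested genes). The 11 listed markers, among them Epcam, Cdh1 and keratins, summed to 448 and 109 CPM in early cells and to 509 and 323 CPM in late cells, against 4.97 and 3.68 CPM in fibroblasts. In late cells, 3 of the 11 markers rose (Cdh1, Krt19 and Krt8), where 0.641% of all tested genes did. Only Krt19 rose in early cells, where 0.695% did. These were named after their values were seen. Both late libraries lay above both fibroblast libraries for all 11 markers (35.7% of tested genes). Both early libraries lay above for 7 and below for 1 (32.3% and 34.4%). Cldn4 and Esrp1 had no counts in either early library. The markers' part in the Lama5 values was not tested. In bulk RNA, fewer cells of a type and less RNA per cell cannot be told apart, here or for any other member.

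Lama1, the alpha chain of the first embryonic basement membranes (chromosome 17, 67697259 to 67822647), had its counts almost wholly in late cells. It had 15 and 22 counts in fibroblasts, 1 and 1 counts in early cells, and 802 and 338 counts in late cells, which correspond to 33.4 and 9.49 CPM in the late libraries and to 0.504 and 0.647 CPM in the fibroblast libraries. The late libraries thus lay far above all 4 others. Over the 2 counts of early cells, late cells were 417-fold higher (exact 95% interval 115 to 3446, for counting error alone), with an edgeR adjusted p of 0.254. Over fibroblasts the log2 fold change was 5.21 ± 0.79 (edgeR adjusted p = 0.0546), with 0.0489 without early replicate 2, 0.0413 without late replicate 1, and 1.3e-08 to 0.266 as the range over the alternatives. The late to early comparison and that of early cells against fibroblasts each passed in some alternatives and not in others. Early cells themselves were lower than fibroblasts, which exceeded them 12.6-fold (exact 95% interval 3.26 to 108) with an edgeR adjusted p of 0.0863.

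Lama2, the alpha chain of muscle and peripheral nerve, and Lama4, that of small vessels and the mesenchyme, varied widely between the libraries of a stage. Lama2 was at 39.4 and 28.6 CPM in fibroblasts, 1.74 and 3.88 CPM in early cells, and 3.79 and 118 CPM in late cells. Both early libraries lay below both fibroblast libraries, while late replicate 1 was close to the early level and late replicate 2 above every other library. Lama2 did not pass in any comparison (edgeR adjusted p from 0.185 to 0.683). Early against fibroblast passed with the libraries of the 2 groups alone (edgeR adjusted p = 0.0445). It did not pass with the replicate block or without mitochondrial transcripts. The late to early fold change, 4.44 ± 1.56 on the log2 scale, dropped to 0.43 without late replicate 2. It was 5.32 without late replicate 1, with late replicate 2 alone standing for late cells. Lama4 was at 27.8 and 92.2 CPM in fibroblasts, 89.0 and 397 CPM in early cells, and 87.1 and 168 CPM in late cells, so that groups overlapped in each comparison. Lama3, the alpha chain of the skin's epidermal anchor, stayed at or below 2.58 CPM, with 1.85 and 2.27 CPM in fibroblasts against 4 and 1 counts in the early libraries. Its early libraries lay below both fibroblast libraries without passing the test (log2 fold change -4.12 ± 1.21, edgeR adjusted p = 0.102), and late replicate 2 reached the fibroblast level where late replicate 1, at 0.375 CPM, did not.

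**Figure D1:**
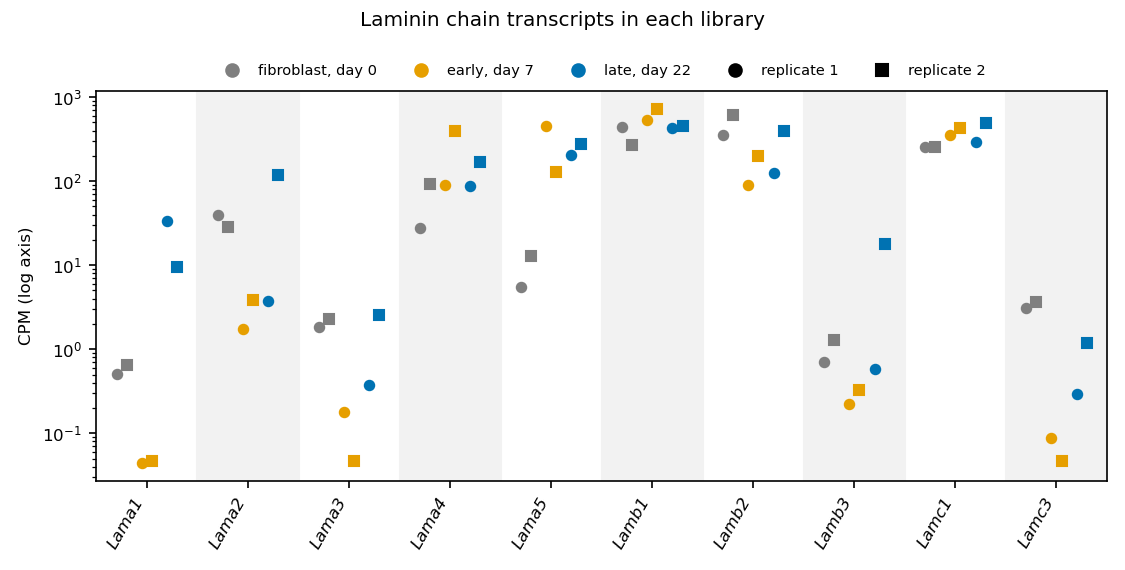
CPM of 10 laminin chain genes on a log axis, with 1 point per library, coloured by stage and shaped by replicate. Lama5 shows 4 CRISPR activation libraries at 128 CPM or more above fibroblasts at 12.8 CPM or less, Lama1 is high in the 2 late libraries alone, and Lama2 and Lamb3 are high in late replicate 2 but not in late replicate 1.

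The abundant beta and gamma chains, Lamb1, Lamb2 and Lamc1, differed less between stages than Lama5 or Lama1 did, a comparison made without a test. Lamb1, the beta chain of embryonic laminins, was at 446 and 271 CPM in fibroblasts, 537 and 727 CPM in early cells, and 432 and 449.6 CPM in late cells. Lamb2, the beta chain of mature muscle, kidney and vessel laminins, was at 349.9 and 609 CPM in fibroblasts, 88.8 and 198 CPM in early cells, and 125 and 392 CPM in late cells. Early libraries lay above both fibroblast libraries for Lamb1 and below them for Lamb2, while late and fibroblast libraries overlapped for both genes. Lamc1, the gamma chain shared by most laminins, was at 254 and 257 CPM in fibroblasts, 351 and 428 CPM in early cells, and 289.7 and 492 CPM in late cells, and all 4 CRISPR activation libraries lay above fibroblasts. None of the 3 passed the test in any comparison.

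Lamb3, a beta chain of epidermal laminin, and Lamc3, a gamma chain, stood low in most libraries. Lamb3 was at 0.705 and 1.29 CPM in fibroblasts, 0.223 and 0.331 CPM in early cells, and 0.584 and 17.9 CPM in late cells. Only late replicate 2 stood out, at 13.8 times the next library. The late to early log2 fold change of 5.04 ± 1.68 (edgeR adjusted p = 0.434) was 1.07 without late replicate 2. It was 5.91 without late replicate 1, with late replicate 2 alone standing for late cells. Keratinocyte markers, 12 genes that include Krt5 and Krt14, summed to 129 CPM in that library and to 11 to 34.6 CPM in the others, with Krt1 at 0 counts in all 6, and their part in the Lamb3 value was not tested. Lamc3 had 2 and 1 counts in the early libraries, against 91 and 125 counts in the fibroblast libraries, so that fibroblasts were 49.2-fold higher (exact 95% interval 16.6 to 240.4) with an edgeR adjusted p of 0.0595. That comparison passed with the libraries of the 2 groups alone (edgeR adjusted p = 0.0383). It did not pass with the replicate block or without mitochondrial transcripts. In late cells Lamc3 stood at 0.292 and 1.18 CPM, between the early and the fibroblast level.

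Because trimers draw on 1 chain of each kind, the makeup of each family was set out per length, as each chain's share of the summed CPM per kb of exon. Among alpha chains, Lama5 held 8.83% and 10.4% in fibroblasts, 84.1% and 25.2% in early cells, and 62.1% and 52.2% in late cells. Lama4 held 42.5% and 70.8% in fibroblasts, 15.6% and 74.2% in early cells, and 25% and 29.8% in late cells. Lama5 was thus the leading alpha chain in 3 of the 4 CRISPR activation libraries and in neither fibroblast library, and early replicate 2 had Lama4 in the lead. This ranking depends on the length: with the longest transcript in place of all exons, Lama4 led in late replicate 2 as well (42.3% against 37.1% for Lama5), so that Lama5 led in 2 of the 4. The share of Lama2 was 44.5% and 16.2% in fibroblasts, 0.226% and 0.535% in early cells, and 0.804% and 15.4% in late cells, so that late replicate 2 was close to fibroblast replicate 2. The summed level of alpha chains was 5.41 and 10.8 CPM per kb in fibroblasts, 47.1 and 44.4 in early cells, and 28.9 and 46.8 in late cells. Among beta chains Lamb1 held 43.8% and 21.4% in fibroblasts, 78.7% and 69.3% in early cells, and 67.9% and 40.3% in late cells, with nearly all of the rest from Lamb2. Lamc1 held 93.3% to 98.7% of the gamma chains in every library. These are descriptions without a test, and the length used also moves the mean shares: with the longest transcript, the mean Lama5 share in fibroblasts was 5.41% against 9.62%, and that of Lama4 in late cells was 41.0% against 27.4%.

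**Figure D2:**
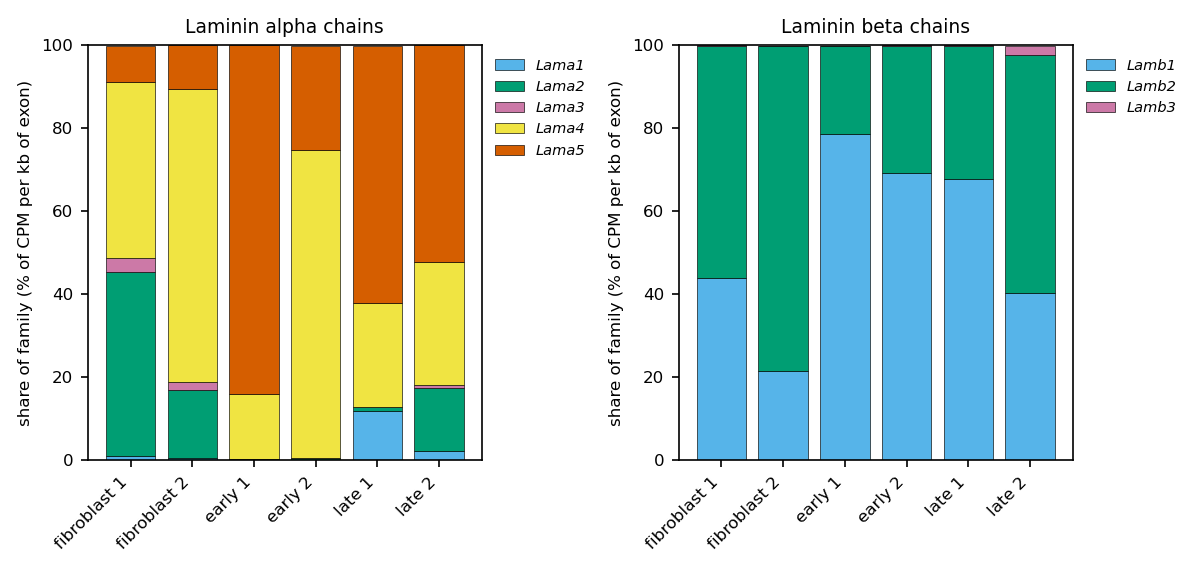
Share of each laminin alpha chain (left) and beta chain (right) in its family's summed CPM per kb of exon, in percent, as stacked bars for the 6 libraries in order of stage. The Lama5 band is at or below 10.4% in fibroblasts and between 25.2% and 84.1% in the other 4 libraries, and the Lamb1 band is smallest in fibroblast replicate 2 at 21.4%.

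The integrins that bind laminin are Itga3, Itga6 and Itga7, paired with Itgb1, and Itga6 paired with Itgb4 in the hemidesmosomes of epithelia. Itga3 was at 47.3 and 56.7 CPM in fibroblasts, 361 and 85.3 CPM in early cells, and 171 and 136 CPM in late cells. All 4 CRISPR activation libraries were higher than fibroblasts, with early replicate 1 at over 4 times early replicate 2. The early log2 fold change was 2.10 ± 0.68 (edgeR adjusted p = 0.119), and Itga3 passed at 0.0276 without early replicate 2, within a range of 0.0239 to 0.39. Against fibroblasts, late cells did not pass (edgeR adjusted p = 0.174). Late cells did pass with the libraries of the 2 groups alone (edgeR adjusted p = 0.04775), but not by DESeq2 or with the replicate block. Itgb4, the beta subunit of hemidesmosomes, was at 2.55 and 1.59 CPM in fibroblasts, 18.4 and 11.5 CPM in early cells, and 5.96 and 5.64 CPM in late cells. Here too all 4 libraries stood above fibroblasts, and both early libraries stood above both late ones. The log2 fold change of Itgb4 over fibroblasts was 2.85 ± 0.49 in early cells and 1.49 ± 0.47 in late cells (edgeR adjusted p = 0.0566 and 0.109). The simple epithelial markers given for Lama5 also summed higher in early and late cells than in fibroblasts. Unlike for Itgb4, both late libraries lay above both early ones for 9 of those 11 markers and below for 1 (16.1% and 17.6% of tested genes). Early and late libraries overlapped for Itga3. The markers' part in these values was not tested.

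Itga6 was at 144 and 48.5 CPM in fibroblasts, 235 and 58.0 CPM in early cells, and 96.9 and 161 CPM in late cells. The libraries of a stage spread as widely as the stages, and the groups overlapped in all 3 comparisons. Itga7, the laminin receptor of muscle, was at 66.3 and 99.7 CPM in fibroblasts, 23.3 and 9.37 CPM in early cells, and 14.2 and 176 CPM in late cells. Late replicate 2 was the highest library for Itga7 and late replicate 1 was within the early range, the same split as for Lama2. In that library 12 heart muscle and 10 skeletal muscle markers summed to 57882 and 1505 CPM, against 87.6 and 29.9 CPM in late replicate 1; Myod1 and Myog, the defining skeletal muscle factors, had no counts in either. The part of such cells in the Itga7 and Lama2 values was not tested.

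Among collagen receptors, Itga11 and Itga1 stood lower in early and late cells than in fibroblasts. Itga11 (chromosome 9, 62677826 to 62783982) encodes a receptor of fibrillar collagen on fibroblasts. Itga11 levels were 42.8 and 77.4 CPM in fibroblasts, 1.43 and 6.15 CPM in early cells, and 4.08 and 2.67 CPM in late cells. All 4 CRISPR activation libraries, at or below 6.15 CPM, lay below both fibroblast libraries, while early and late libraries overlapped. The log2 fold change was -3.99 ± 0.81 in early cells and -4.16 ± 0.81 in late cells (edgeR adjusted p = 0.0679 and 0.0645). With a library left out, the Itga11 log2 fold change ran from -5.345 to -3.285 in early cells and from -4.549 to -3.665 in late cells. Both comparisons passed in some alternatives and not in others. Itga1, a receptor for basement membrane collagen in smooth muscle and mesenchyme, was at 45.3 and 101 CPM in fibroblasts, 11.4 and 16.5 CPM in early cells, and 36.7 and 30.7 CPM in late cells. Early libraries were lowest, late ones in between, with no overlap between any of the groups (log2 fold change over fibroblasts -2.39 ± 0.46 in early cells and -1.12 ± 0.44 in late cells, edgeR adjusted p = 0.0642 and 0.151). The 12 fibroblast markers summed to 5830.2 and 14778 CPM in early cells and 5265.0 and 4913.7 CPM in late cells, against the fibroblast sums above. Of the 12, both early libraries lay below both fibroblast libraries for 4, as for 34.4% of all tested genes. Both late libraries did for 9, as for 32.9% of all tested genes. In each comparison with fibroblasts 1 of the 12 fell (S100a4, named after its values were seen). Of all tested genes, 0.833% fell in early and 0.779% in late cells. The markers' part in the Itga11 values was not tested. Lum had no counts in early replicate 1. Itga2, the collagen receptor of platelets and epithelia, was at 3.16 and 1.89 CPM in early cells, and no other library passed 0.843 CPM. Itga10, a receptor of cartilage, lay between 2.09 and 4.5 CPM in all 6, and 33.5% of its exon length is shared with another annotated gene on the same strand.

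Itga8, which with Itgb1 binds nephronectin and other RGD proteins and is known from smooth muscle, mesangium and mesenchyme, fell in early cells (ENSMUSG00000026768, chromosome 2, 12106632 to 12301922). It was at 55.6 and 106 CPM in fibroblasts, 0.312 and 0.615 CPM in early cells, and 10.7 and 18.8 CPM in late cells. The 3 stages did not overlap, with early cells lowest at 7 and 13 counts and late cells in between. The early log2 fold change over fibroblasts was -7.44 ± 0.66 (SE, edgeR adjusted p = 0.0241). This call was lost without fibroblast replicate 1 (0.14), fibroblast replicate 2 (0.142) or early replicate 1 (0.0779), fits in which 1 library stands for its group, and the range over the alternatives was 3.16e-27 to 0.142. Late cells stood 2.46 ± 0.51 lower than fibroblasts and 4.98 ± 0.60 higher than early cells on the log2 scale without passing the test (edgeR adjusted p = 0.0656 and 0.254). With a library left out, the late to early log2 fold change of Itga8 ran from 4.523 to 5.475. That comparison passed in some alternatives and not in others. An antisense gene overlaps 5.05% of its exon length, so a few reads may belong to that gene. Smooth muscle and pericyte markers, 12 genes, summed to 1099 and 3667 CPM in fibroblasts, 583 and 1217 CPM in early cells, and 1370.4 and 2964 CPM in late cells, all 12 detected in all 6 libraries, and their part in the Itga8 values was not tested.

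Itga5, Itgav and Itga2b also bind RGD proteins, and none of them passed the test. Itga5, the fibronectin receptor, was at 166 and 165 CPM in fibroblasts, 146 and 120.0 CPM in early cells, and 145 and 164 CPM in late cells. Early and late libraries lay below both fibroblast libraries by little, and the direction of the late difference (edgeR adjusted p = 0.758) turned round when total counts were used without TMM scaling. Itgav, the vitronectin receptor that also activates latent TGF-beta, was at 518 and 414 CPM in fibroblasts, 264 and 291 CPM in early cells, and 203 and 154 CPM in late cells. Its groups did not overlap, and its level was lower at each later stage (log2 fold change over fibroblasts -0.75 ± 0.26 in early cells and -1.38 ± 0.26 in late cells, edgeR adjusted p = 0.131 and 0.0608). Itga2b, the fibrinogen receptor of platelets, was at 2.38 to 6.82 CPM in all 6 libraries, with the 4 CRISPR activation libraries at 3.83 CPM or more. The 10 platelet and megakaryocyte markers summed to 11.9 and 79.0 CPM in fibroblasts, 14.4 and 17.1 CPM in early cells, and 14.9 and 32.3 CPM in late cells. Gp6, a collagen receptor of platelets, had counts in late replicate 1 alone, and the markers' part in the Itga2b values was not tested.

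Per kb of exon, Itgb1, the partner of most alpha subunits, was the most abundant of the 37 members and Itgb5 came next. Itgb1 levels (chromosome 8, 128685654 to 128733200) were 2063 and 2867 CPM in fibroblasts, 1126 and 1299.7 CPM in early cells, and 969 and 867 CPM in late cells. The groups did not overlap, and all 4 CRISPR activation libraries lay below fibroblasts. The log2 fold change was -1.02 ± 0.30 in early cells and -1.43 ± 0.30 in late cells (edgeR adjusted p = 0.0997 and 0.0657). Itgb5 and Itgb3, the partners of Itgav in vitronectin receptors, were lower too. Itgb5 was at 501 and 779 CPM in fibroblasts, 170.4 and 322 CPM in early cells, and 184 and 182 CPM in late cells. Its late fold change (-1.81 ± 0.41 on the log2 scale, edgeR adjusted p = 0.0714) ran from -2.09 to -1.453 with a library left out. Itgb3 was at 139 and 69.3 CPM in fibroblasts, 47.3 and 23.3 CPM in early cells, and 42.7 and 35.3 CPM in late cells. Itgb8, which with Itgav activates latent TGF-beta, was at 8.19 and 11.1 CPM in fibroblasts, 0.624 and 1.89 CPM in early cells, and 3.13 and 2.16 CPM in late cells. For each of these 4 beta subunits all CRISPR activation libraries lay below both fibroblast libraries, and 0 of the 4 passed the edgeR test in either comparison with fibroblasts (4 of 4 had an unadjusted p under 0.05 in each, as 29.8% of all tested genes had in early and 32.5% in late cells, and DESeq2 called 4 of 4 in each, against 22.5% and 26.0% of its tested genes; the 4 are grouped here because they lay lower). Their makeup stayed close: Itgb1 held 74.0% to 81.8% and Itgb5 14.2% to 23.1% of the beta subunits' summed CPM per kb in every library.

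Itgb6, the beta subunit of injured epithelia, had 4 and 0 counts in fibroblasts, 13 and 3 counts in early cells, and 4 and 702 counts in late cells. Nearly all counts of Itgb6 came from late replicate 2, at 19.7 CPM, or 34.0 times the next library. Itgb7, a leukocyte subunit, was at 13.5 and 1.5 CPM in fibroblasts, 5.08 and 0.615 CPM in early cells, and 4.17 and 5.39 CPM in late cells. For Itgb7 the libraries of fibroblasts and of early cells differed by more than 8 times within a stage, and the groups overlapped.

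**Figure D3:**
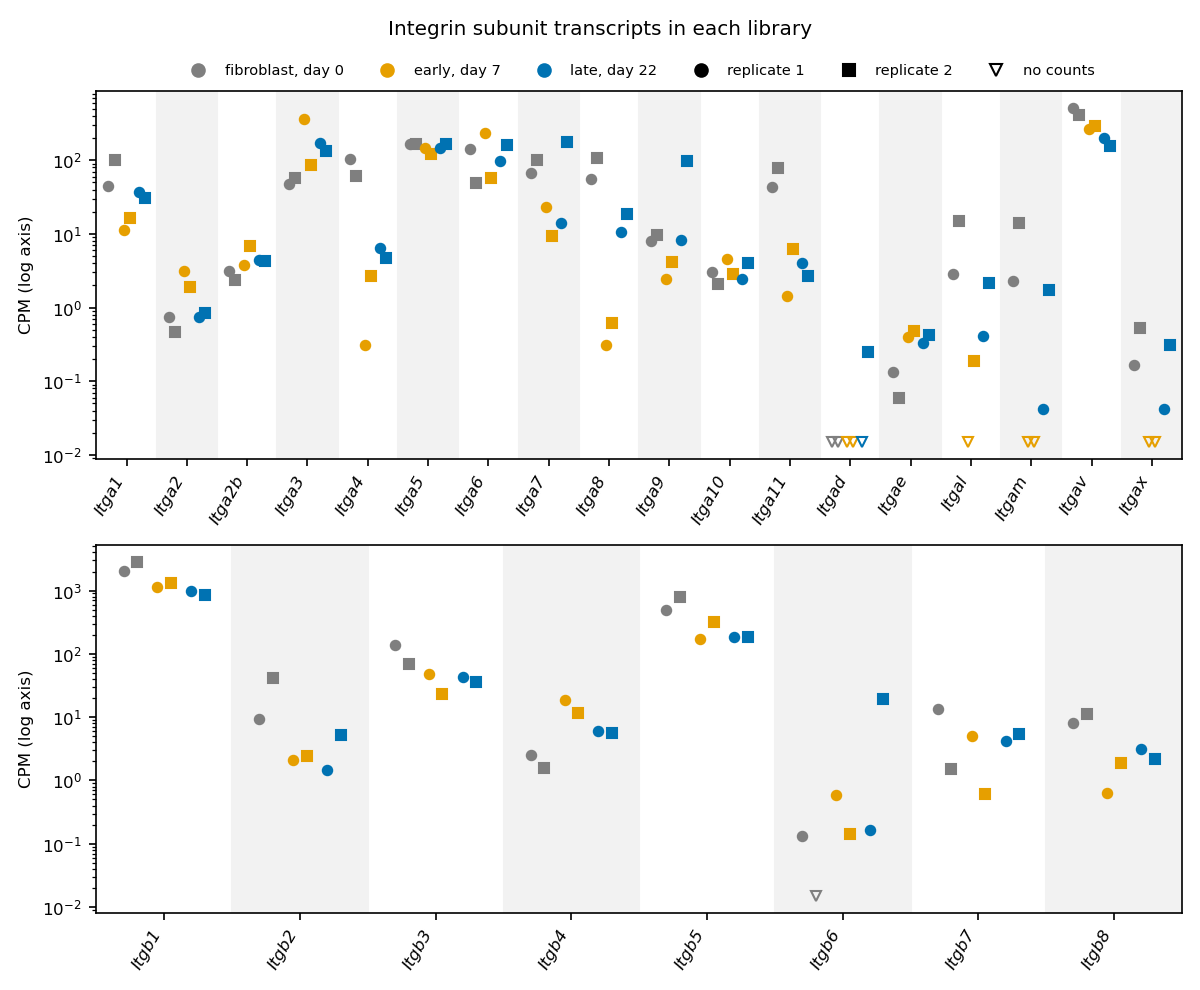
CPM of 18 integrin alpha (top) and 8 beta (bottom) subunit genes on log axes, with 1 point per library, coloured by stage and shaped by replicate; open triangles at the bottom mark libraries without counts. Itga8, Itga4 and Itga11 are well below fibroblasts in early cells, Itga8 in late cells is between its early and its fibroblast level, and Itga9 and Itgb6 are high in late replicate 2 alone.

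Itga4 and Itga9 bind fibronectin splice forms, VCAM1 and osteopontin. Itga4, needed for the epicardium to attach to the heart (chromosome 2, 79255426 to 79333123), stood at 104 and 60.4 CPM in fibroblasts, 0.312 and 2.65 CPM in early cells, and 6.46 and 4.72 CPM in late cells. Early libraries were lowest and both late libraries were above them and below fibroblasts. The log2 fold change over fibroblasts was -5.80 ± 1.05 in early cells and -3.88 ± 0.95 in late cells (edgeR adjusted p = 0.0605 and 0.0781). With a library left out, the Itga4 log2 fold change ran from -7.975 to -4.952 in early cells and from -4.219 to -3.433 in late cells. Both comparisons passed in some alternatives and not in others. Itga9, the receptor of lymphatic valves and muscle, was at 7.99 and 9.53 CPM in fibroblasts, 2.40 and 4.16 CPM in early cells, and 8.38 and 98.7 CPM in late cells. Late replicate 2 was 10.4 times the next library, and the late to early fold change of 4.03 ± 1.18 on the log2 scale (edgeR adjusted p = 0.407) was 1.35 without it. Without late replicate 1 that fold change was 4.83, with late replicate 2 alone standing for late cells. Together Itga9, Itgb6 and Lamb3 were the 3 of 35 tested members at 4 or more times every other library in late replicate 2, where 3.7% of all tested genes are.

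Itgam, Itgal and Itgb2, subunits of leukocyte receptors, had their highest level in fibroblast replicate 2. Itgam, the subunit of the macrophage receptor Mac-1, had 69 and 476 counts in fibroblasts, 0 and 0 in early cells, and 1 and 61 in late cells. With 3 counts over the early libraries as the floor, fibroblasts were at least 124-fold higher than early cells (edgeR adjusted p = 0.11), and 68.7% of its exon length is shared with another annotated gene. Itgal, the LFA-1 subunit of white blood cells, stood at 2.82 and 14.9 CPM in fibroblasts, 0 and 0.189 CPM in early cells, and 0.417 and 2.16 CPM in late cells. Itgb2, their shared beta subunit, was at 9.30 and 41.0 CPM in fibroblasts, 2.09 and 2.41 CPM in early cells, and 1.46 and 5.17 CPM in late cells. In fibroblast replicate 2 these 3 were at 4 or more times every other library, 3 of 35 tested members where 0.384% of all tested genes are. Itgax, a dendritic cell subunit, had 5 and 18 counts in fibroblasts, none in early cells, and 1 and 11 in late cells, while Itgad had 9 counts in late replicate 2 and none elsewhere. Other annotated genes overlap 19.7% of the Itgad exon length, so these counts may not all belong to Itgad. Itgae, the subunit of resident T cells, went the other way at very low levels, with 4 and 2 counts in fibroblasts, 9 and 10 in early cells, and 8 and 15 in late cells. All 4 CRISPR activation libraries lay above fibroblasts for Itgae in CPM (log2 fold change 2.14 ± 0.67 in early and 1.94 ± 0.66 in late cells, edgeR adjusted p = 0.111 and 0.122). Leukocyte markers, like Itgam, Itgal and Itgb2, were highest in fibroblast replicate 2: 12 genes summed to 286 and 1167 CPM in fibroblasts, 116 and 52.0 CPM in early cells, and 71.7 and 199.9 CPM in late cells. Tyrobp had no counts in early replicate 2 and late replicate 1, and the markers' part in these values was not tested.

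**Figure D4:**
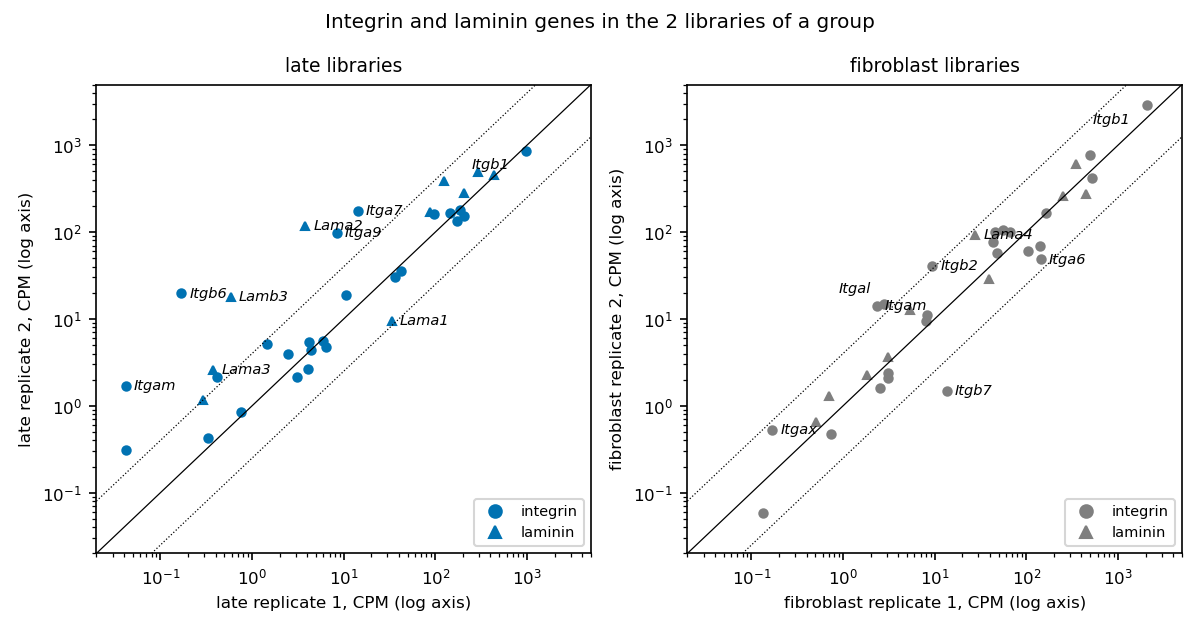
CPM of the members in replicate 2 against replicate 1 on log axes, for late libraries (left, 35 genes with counts in both) and fibroblast libraries (right, 34 genes), circles for integrins and triangles for laminins. The solid line marks equal levels and the dotted lines a 4-fold difference; genes above the upper dotted line include Itgb6, Lamb3, Lama2, Itga7 and Itga9 on the left and Itgam, Itgal and Itgb2 on the right, where Itgb7 is below the lower one.

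Counted over the tested members, early against fibroblast gave 1 call of 35, Itga8, where 1.53% of all tested genes were called. The early libraries were both below both fibroblast libraries for 22 of the 35 (34.4% of all tested genes) and both above for 9 (32.3%). Some of these rest on few counts. The 9 include Itgae and Itgb6, at 6 and 4 counts over the fibroblast libraries. The 22 include Itgam, Lama1 and Lamc3, at 0, 2 and 3 counts over the early libraries. By the unadjusted p under 0.05 there were 21 of 35 members (29.8% of tested genes), and DESeq2 called 20, of which 16 lower and 4 higher in early cells (22.5% of its tested genes). The call of Itga8 was lost without fibroblast replicate 1, fibroblast replicate 2 or early replicate 1. Further members were called without early replicate 2, late replicate 1 or late replicate 2. The shares of all genes called in those fits are not given. Over all 37 members 23 were below, 9 above and 5 overlapped.

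Late against fibroblast gave 0 calls of 35 members by edgeR, where 1.42% of all tested genes were called. Both late libraries lay below both fibroblast libraries for 15 members (32.9% of tested genes) and above for 9 (35.7%). The unadjusted p was under 0.05 for 16 members (32.5% of tested genes), and DESeq2 called 13 (26.0% of its tested genes), of which 9 were lower and 4 higher in late cells. Some members were called by edgeR without early replicate 1, early replicate 2 or late replicate 1, fits whose shares over all genes are not given. The comparisons of early and of late cells use the same fibroblast libraries. All 4 CRISPR activation libraries were below both fibroblast libraries for 15 of 35 tested members, where 23.8% of all tested genes were, and above them for 8, where 25.4% of all tested genes were. Both these 8 and the 9 above in late cells include Itgae and Itgb6, with 6 and 4 counts over the fibroblast libraries.

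Late against early gave 0 calls of 35 members by edgeR, as of all tested genes (0.0%). Late libraries were both above both early ones for 11 members (16.1% of tested genes) and both below for 5 (17.6%). The unadjusted p was under 0.05 for 10 members (10.2% of tested genes), and DESeq2 called 7, namely Itga8, Itga9, Itgam, Lama1, Lama2 and Lamb3 higher and Itgb4 lower in late cells (6.55% of its tested genes). Some members were also called by edgeR without late replicate 1, a fit whose share over all genes is not given.

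**Figure D5:**
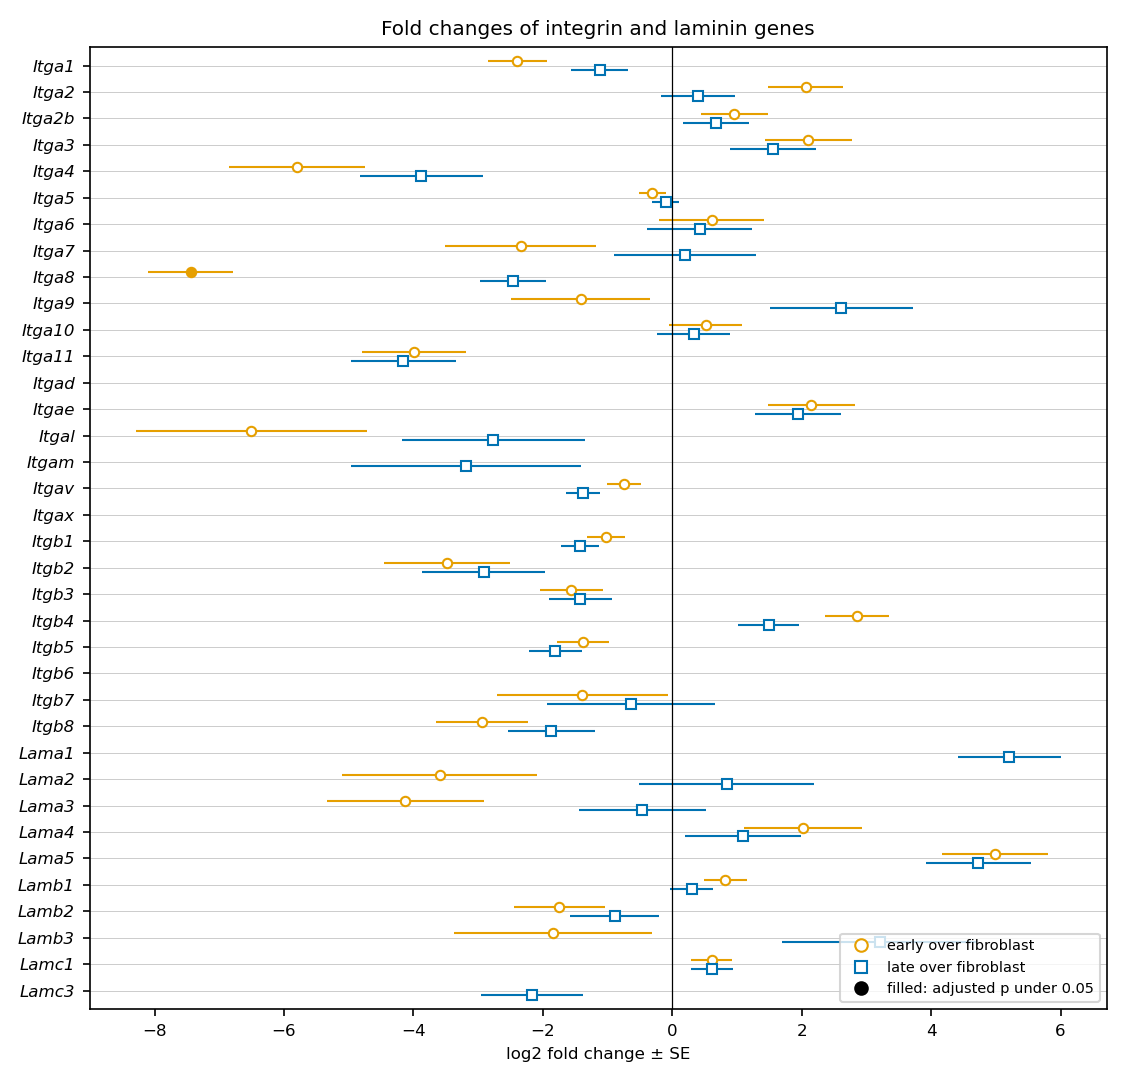
Log2 fold changes with SE over fibroblasts for early cells (circles) and late cells (squares); filled symbols have an edgeR adjusted p under 0.05, which only Itga8 in early cells reached, at -7.44. Itgad, Itgax and Itgb6, and values resting on 3 or fewer counts in a group, are left out, and both comparisons use the same 2 fibroblast libraries.

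Genes that work with integrins and laminins were counted from 4 lists, and each of the 9 calls given with values from them was lost without fibroblast replicate 1, without fibroblast replicate 2 and with the replicate block (edgeR adjusted p from 0.0543 to 0.259 over those 3 settings). Of 24 basement membrane partners, all tested, 1 rose and 4 fell in early cells and 2 rose and 1 fell in late cells (median log2 fold change -0.29 and 0.77, against 0.0038 and 0.11 over all genes). Of all tested genes, 1.53% were called in early and 1.42% in late cells. Col4a6, a collagen chain of smooth muscle and epithelial basement membranes, rose in both, at 87.9 and 148 CPM in early cells and 171 and 76.0 CPM in late cells, against 1.65 and 2.5 CPM in fibroblasts (log2 fold change 5.82 ± 0.60 and 5.89 ± 0.61, edgeR adjusted p = 0.0332 and 0.0364). Col7a1, the anchoring fibril collagen of skin, fell in both, with log2 fold changes of -2.67 and -3.64 and edgeR adjusted p = 0.0472 and 0.0379. Hmcn1 and Fras1, matrix proteins that link epithelium and mesenchyme, fell in early cells, with log2 fold changes of -6.80 and -5.07 and edgeR adjusted p = 0.0357 and 0.0447. Egfl6, a secreted matrix protein named because the count is small, was the other that fell in early cells. Smoc1, a calcium-binding protein of basement membranes, rose in late cells to 64.4 and 18.3 CPM against 0.604 and 0.382 CPM in fibroblasts (edgeR adjusted p = 0.0485). The early calls of Col4a6, Col7a1, Hmcn1 and Fras1 were lost without early replicate 1 (0.0737 to 0.118), and those of Hmcn1 and Col7a1 also without early replicate 2 (0.0512 and 0.0546). The late calls of Col4a6, Col7a1 and Smoc1 were lost without late replicate 2 (0.07 to 0.0773).

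Of 28 other integrin ligands, 23 were tested, 1 rose in early cells and 1 fell in late cells (median log2 fold change -1.08 and -1.21). The shares of all tested genes called were 1.53% and 1.42%. The ligand that rose was Npnt, nephronectin, the ligand for which Itga8 is known, at 199 and 70.3 CPM in early cells against 4.87 and 5.74 CPM in fibroblasts (log2 fold change 4.66 ± 0.62, edgeR adjusted p = 0.0456), with 107 and 66.1 CPM in late cells. Without early replicate 1 the Npnt fold change was 3.73 and not called (0.0737). In early cells Npnt and Itga8 thus differed from fibroblasts in opposite directions. Thbs2, a thrombospondin of the fibroblast matrix, fell in late cells to 12.6 and 18.2 CPM against 1683 and 1839 CPM in fibroblasts (edgeR adjusted p = 0.0465), a call lost without late replicate 1 (0.0617) or late replicate 2 (0.087). Of 34 focal adhesion adaptors and kinases, 33 were tested and 0 were called by edgeR in any comparison (against fibroblasts 11 in early and 11 in late cells had an unadjusted p under 0.05, and DESeq2 called 6 and 9; late against early it was 5 and 3). Of all tested genes, 29.8% and 32.5% had such a p in the comparisons with fibroblasts and 10.2% between late and early cells, and DESeq2 called 22.5%, 26.0% and 6.55% of its own. The median log2 fold change of that list was -0.76 in early and -0.64 in late cells. Flna and Actn4, actin crosslinkers, were the most abundant, with Actn4 at 677 and 415 CPM in early cells and 640 and 454 CPM in late cells, against 1011 and 1074 CPM in fibroblasts. Of 25 laminin receptors other than integrins and integrin partners, 24 were tested and 0 were called by edgeR in any comparison (against fibroblasts 10 and 8 at an unadjusted p under 0.05 and 9 and 7 by DESeq2; late against early 5 and 3), with medians of -0.40 in early and -0.29 in late cells over fibroblasts. Rpsa, a ribosomal protein that also binds laminin, was at 1334 and 829 CPM in early cells and 939 and 849.8 CPM in late cells, against 644 and 536 CPM in fibroblasts, with no overlap and no call.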

How the data were processed

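RNA after poly(A) selection was sequenced in 6 libraries, 2 per stage. The authors deposited a table of whole-number read counts by Ensembl identifier, without normalization. The submitters' processing notes name the build GRCm38, Trimmomatic 0.36, STAR 2.5.2b, Subread 1.5.2 and featureCounts. The sources used here do not give the strand setting, annotation release or treatment of multi-mapping reads, so genes overlapped by another gene carry uncertain counts. Early and late columns were assigned by name: the abbreviation for induced progenitors was read as late, and that for fibroblasts with an added c as early. If that reading were wrong, early and late values would change places. No label says whether replicates came from separate animals or cultures: the p-values rest on the spread between libraries, which may be technical.

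Symbols, positions and exon lengths came from GENCODE M21 on GRCm38 (48970 identifiers with a symbol, 345 without). Counts were fitted in R 4.3.3 with edgeR 4.0.16: default expression filter, TMM, robust quasi-likelihood model of the 3 group means without a block (3 residual degrees of freedom, common biological coefficient of variation 48.6%), Benjamini-Hochberg adjustment over 16688 genes. Standard errors are the absolute fold change over the square root of F. In the text, fold changes of members are given only at an unadjusted p under 0.05 and more than 3 counts in each group. Not every member that met this is given with one, so a missing fold change does not mean a higher p. With 3 or fewer counts in a group, any ratio given has an exact 95% counting interval or is a bound at 3 counts. Both cover counting error only. CPM per kb divides CPM by the union of exons. The fit was also run on simulated counts with known fold changes, and the outcome is not given here. Each simulation used the same spread for every gene and group, so it does not bear on the unequal spread of these libraries. Alternatives were RLE or no scaling, no mitochondrial transcripts, no filter, DESeq2 1.42.0, a replicate block, libraries of the 2 groups alone, non-robust estimation and each library left out; for the lists of partner genes they were added after seeing the data. Each fit with a library left out had 1 library for that group, which then added nothing to the estimate of spread. Figures were drawn with matplotlib 3.10.9. Members and lists were chosen with earlier results of these data known. Each member is counted, and 1 of them is not reported here by its own values and is not drawn; of other genes, at most 4 called per list and comparison are given with values, or the 2 most abundant where none was called.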

Additional observations from a re-analysis of the deposited data

How the results depend on the processing

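The number of members called between early cells and fibroblasts, 1 by the reported test, was 4 with total counts unscaled, 12 without a filter on low counts, 20 by DESeq2, 3 with the libraries of the 2 groups alone, and 0 to 5 when a library was left out. Between late cells and fibroblasts, 0 by the reported test, it was 2, 7, 13 and 4 under the same 4 settings and 0 to 6 with a library left out. Between late and early cells, also 0, it was 2 without a filter, 7 by DESeq2 and 0 to 5 with a library left out. RLE scaling, leaving out mitochondrial transcripts, non-robust estimation and the replicate block gave the same counts of members called, 1, 0 and 0. Unscaled total counts moved the median log2 fold change of all genes by 0.17 in early and 0.16 in late cells against fibroblasts. Under them 1 member, Itga5, turned sign between late cells and fibroblasts and 1, Lamc1, between late and early cells. The 42 fold changes of members followed were picked for an unadjusted p under 0.05 in these data and more than 3 counts in each group. Of them, 0 turned sign under any alternative, an outcome that this choice favours. Only that of Itga8 in early cells was a reported call. Against the threshold, 511 refits kept their side and 74 came to pass it. The 3 that no longer passed were all refits of Itga8. The cause was not tested. Of its tested genes, DESeq2 called 22.5% in early and 26.0% in late cells against fibroblasts, and 6.55% between late and early cells. Shares of all genes called under the other alternatives are not given, so the counts of members under them are no result about the members.

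For the 4 lists of partner genes, alternatives were added after seeing the data. Shares of all genes called are given above for the reported test and DESeq2 alone. Counts under the other alternatives are therefore no result about the lists. Basement membrane calls in early cells, 5 by the reported test, were 8 unscaled, 11 without a filter, 16 by DESeq2, 10 with 2 groups alone, 0 with the replicate block and 0 to 10 with a library left out; in late cells, 3 by the reported test, they were 8 without a filter, 13 by DESeq2, 5 with 2 groups alone, 0 with the block and 0 to 5 with a library left out. Ligand calls, 1 and 1 by the reported test, were 2 and 2 unscaled, 4 and 6 without a filter, 12 and 13 by DESeq2, 3 and 5 with 2 groups alone, 0 and 0 with the block, 0 to 3 and 0 to 6 with a library left out, and 2 in late cells with non-robust estimation. Focal adhesion calls, 0 and 0, were 1 in early cells unscaled, 5 and 2 without a filter, 6 and 9 by DESeq2, 3 in early cells with 2 groups alone, and 0 to 3 and 0 to 1 with a library left out. Calls among other laminin receptors, 0 and 0, were 1 in late cells unscaled, 4 and 3 without a filter, 9 and 7 by DESeq2, 2 and 1 with 2 groups alone, and 0 to 2 and 0 to 2 with a library left out. Between late and early cells these lists, all at 0, had 3 basement membrane calls without a filter, DESeq2 called 5 basement membrane genes, 2 ligands, 3 focal adhesion genes and 3 laminin receptors, and leaving out a library gave 0 to 4, 0, 0 to 2 and 0 to 1.

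Same-numbered replicates deviated together only weakly (r = 0.121 for early and fibroblast, 0.238 for late and fibroblast, 0.086 for late and early, over 16688 genes), and nothing in the labels pairs them. With the replicate block the adjusted p of Itga8 in early cells was 0.042. With the longest transcript as length, the mean Lama5 share of alpha chains was 5.41% in fibroblasts and 43.3% in late cells, against 9.62% and 57.1% with all exons, and the Lama4 share in late cells was 41.0% against 27.4%. Without division by length the Lama5 share in fibroblasts was 8.32%. At 2 libraries per stage and counts of 0 to 2 per early library, lower levels of Itgam, Itgax, Lama1 and Lamc3 in early cells could not be resolved further.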
